A study of Mus musculus and Homo sapiens with 4 samples.

Results

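The BCL2 family decides whether a cell keeps its mitochondrial outer membrane intact, and transcripts of 10 of its genes were followed here in mouse and human tumour cells depleted of Merm1. The genes were chosen by symbol: BCL2, BCL2L1, BCL2L2 and MCL1 encode survival proteins, BAK1 encodes a pore-forming effector, and BID, BAD, BIK, BMF and BCL2L11 encode BH3-only death proteins. All 10 were found on both arrays, among 18193 named genes on the mouse array and 19773 on the human array. They had 37 probe sets with 1 gene symbol in mouse and 32 in human. A further human probe set carried 3 symbols, those of BCL2L2, PABPN1 and their readthrough transcript. It read 10.26 in both arrays and was not assigned to a gene.

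The study compared 4 stably infected cultures with 1 array each, of the murine osteosarcoma LM8 and the human melanoma A375M. The knock-down cells of each line carried the retroviral vector pSIREN-RetroQ with a hairpin against the mouse or human Merm1/Wbscr22 gene, and the control cells carried pSIREN-RetroQ-control, so all 4 cultures had been infected with a retrovirus. The gene, now called Bud23 in mouse and BUD23 in human, encodes an 18S ribosomal RNA methyltransferase. LM8 was grown in MEM and A375M in DMEM, both with serum. The sources used here do not say whether a culture was a clone or a pool, or how many hairpins were used.

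Survival proteins of the family hold the effectors BAK and BAX in check by binding them in a groove. BH3-only proteins carry a short helix, the BH3 domain, that fits the same groove and frees or directly activates the effectors, which then perforate the membrane and release cytochrome c. In tumour cells the balance between these classes sets the threshold for apoptosis. Much of that balance is set by protein turnover, phosphorylation and cleavage, which an RNA array does not measure.

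Levels are RMA values on the log2 scale, and a difference means knock-down minus control within a line. Each group held 1 array, so there are no replicates and no p-values, and precision is limited by the number of arrays. A pair of gauges of size was used instead. Over all genes with several probe sets, the typical (median) SD between the differences of a gene's own probe sets was 0.14 for LM8 and 0.074 for A375M. In addition, all probe sets of an array pair were divided into 10 bands by mean level, and the 5th and 95th percentiles of the differences in each band were noted. Many A375M differences were exactly 0 (45.4% of probe sets, against 0.706% in LM8). Such identical values can make both gauges too small in A375M, so its smaller SD does not mean a more precise pair of arrays. Bright and dim order probe sets within an array by RMA level, which also depends on how well the probes bind, and not by amount of transcript. In RNA from a whole culture, fewer cells with a transcript and less transcript per cell cannot be told apart.

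The target gene read 8.48 in the LM8 knock-down array and 10.61 in the LM8 control array, which left 22.9% of the control level. In A375M its bright probe set read 8.38 in the knock-down array and 10.70 in the control array, a difference of -2.32. Of 10 listed osteoblast markers 6 were measured, and all 6, Alpl, Sp7 and Ibsp among them, lay above the array median in both LM8 arrays. All 9 measured melanocyte markers did so in A375M. In the A375M knock-down array these ran from 5.19 (MLANA) and 5.57 (PMEL) to 11.53 (SOX10), against an array median of 4.67. The marker lists did not separate the lines, since 5 of 10 measured melanocyte markers lay above the median in both LM8 arrays and 4 of 8 measured osteoblast markers in both A375M arrays. In LM8 Pax3 read 10.12 in the knock-down array and 10.37 in the control array, and S100b 9.01 in the knock-down array and 8.28 in the control array, a difference past 1.5-fold. In A375M SPP1 read 11.10 in the knock-down array and 10.97 in the control array. Of 5 measured leukocyte markers 1 lay above the median in both LM8 arrays and 3 in both A375M arrays, none above 7 in log2 level. The difference between 3' and 5' probe sets, a sign of RNA integrity, was 0.34 for actin in the LM8 knock-down array and 0.35 in the control array, and 1.00 in the A375M knock-down array against 0.91 in the control array. In A375M 45.4% of probe sets had exactly equal values in both arrays, against 0.706% in LM8.

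No member of the family differed by 1.5-fold or more between knock-down and control cells in either line. Each gene was read from its brightest probe set, that of the highest mean level, and was kept when this exceeded the median of all probe sets in at least 1 array. All 10 members were above the median in both arrays of both lines. In LM8, 0 of 10 differed by at least 1.5-fold, where 2.47% of all kept genes did. In A375M it was also 0 of 10, where 0.748% did. Counts this low among 10 genes lie near the background shares. The members' differences ran from -0.14 to 0.41 in LM8, with a median of 0.0059 against 0.015 for all kept genes. In A375M they ran from -0.18 to 0.22, with a median of -0.038 against 0 for all kept genes. In LM8 5 members were higher, 5 lower and 0 identical, beside 53.8%, 46% and 0.172% of kept genes. In A375M 2 were higher, 6 lower and 2 identical, beside 29%, 40.3% and 30.8% of kept genes.

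**Figure D1:**
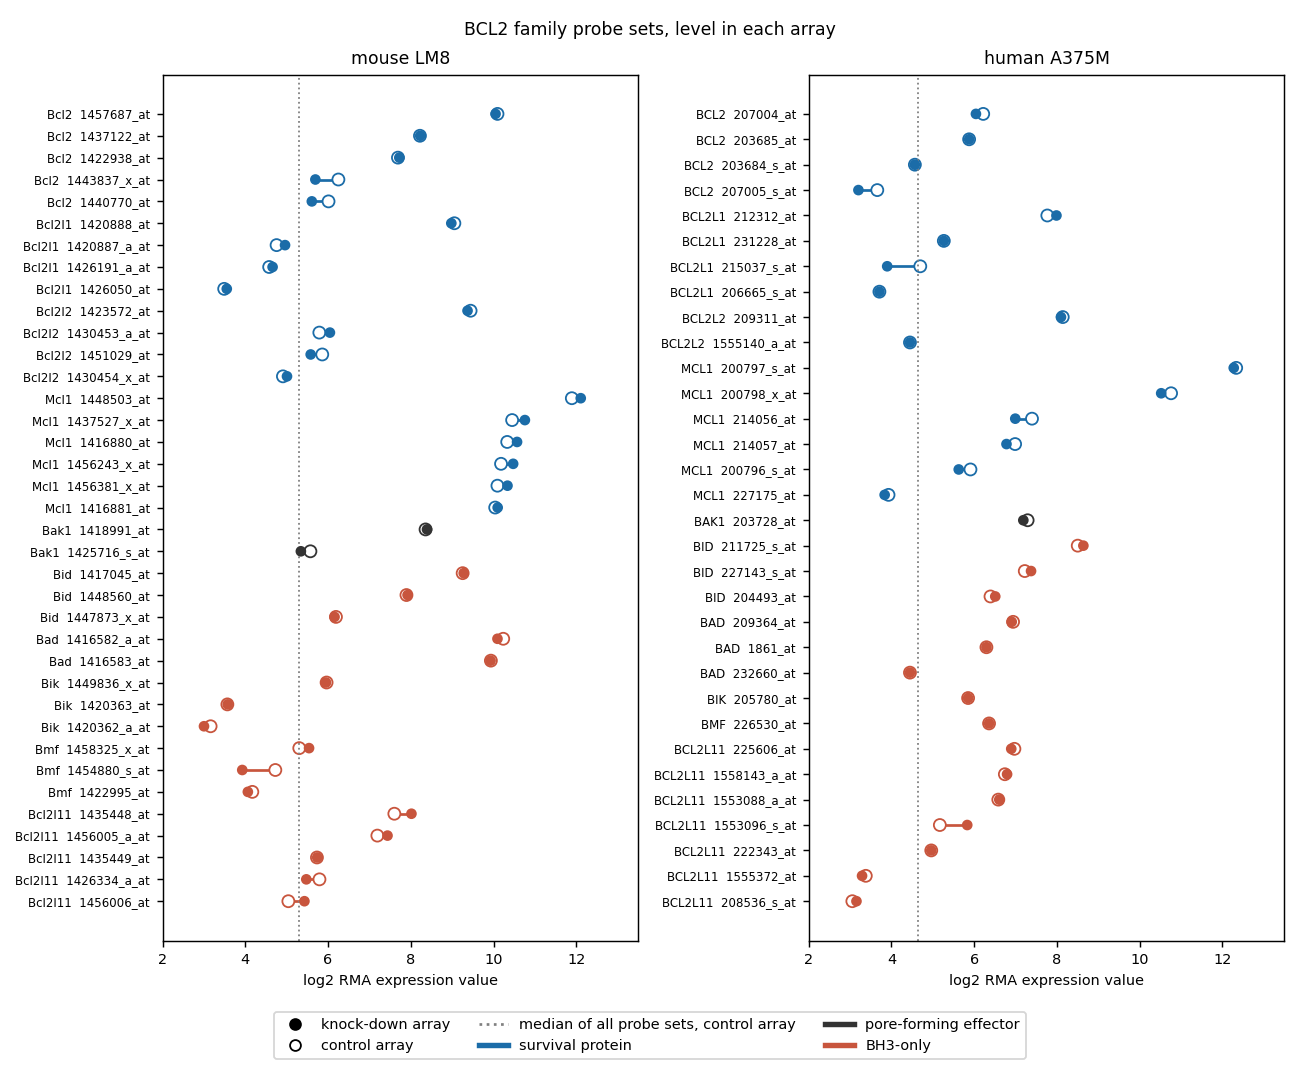
Log2 RMA level (x axis) of every BCL2 family probe set (rows) in the knock-down array (filled) and the control array (open) of LM8 and A375M, coloured by protein class, with the control array's median dotted. Most pairs of points overlap, and the widest gaps, Bmf in LM8 and BCL2L1 in A375M (both -0.80), belong to probe sets near or below the median.

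Single probe sets reached larger differences than the genes' brightest ones. In LM8 1 of 37 differed by at least 1.5-fold, beside 2.49% of all probe sets with 1 symbol, and in A375M 2 of 32, beside 0.584%. Of the 37 mouse probe sets 31 lay between the 5th and 95th percentiles of their level band and 6 outside, and of the 32 human ones 26 lay between and 6 outside. By construction about 10% of all probe sets lie outside (10% in LM8 and 9.99% in A375M). Of those outside, 3 in LM8 were of Mcl1, and in A375M MCL1 and BCL2L1 had 2 each.

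**Figure D2:**
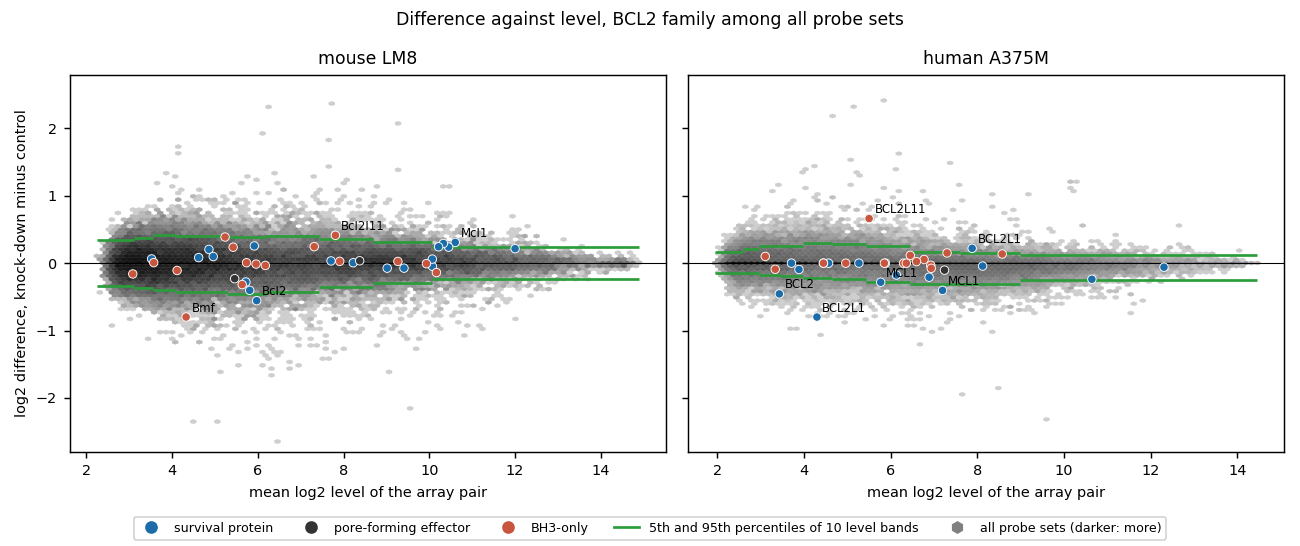
Log2 difference, knock-down minus control (y axis), against the mean log2 level of the array pair (x axis) for all probe sets (grey) and the BCL2 family (coloured by class), with green lines at the 5th and 95th percentiles of 10 level bands. In each line 6 family probe sets lie outside the green lines, and they are labelled, except for 2 of the 3 Mcl1 probe sets in LM8, which lie beside the labelled one.

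MCL1, a short-lived survival protein that neutralises BAK and BIM, was the only member with every probe set on 1 side of 0 in each line, and the side was opposite in the 2 lines. In LM8 the brightest Mcl1 probe set, 1448503_at, read 12.11 in the knock-down array and 11.89 in the control array. The other 5 read 10.76, 10.57, 10.47, 10.34 and 10.10 in the knock-down array and, in the same order, 10.45, 10.33, 10.18, 10.09 and 10.04 in the control array. Every Mcl1 probe set was thus higher in the LM8 knock-down array, by 0.060 to 0.31 (median 0.24). In A375M the brightest MCL1 probe set, 200797_s_at, read 12.28 in the knock-down array and 12.33 in the control array. The other 5 read 10.52, 6.99, 6.78, 5.63 and 3.84 in the knock-down array and, in the same order, 10.76, 7.40, 6.99, 5.91 and 3.93 in the control array. Every MCL1 probe set was thus lower in the A375M knock-down array, by 0.060 to 0.40 on the log2 scale (median -0.22). The control values of 214057_at, 200796_s_at and 227175_at recurred exactly in 3, 65 and 335 other probe sets of that array. The last also lay below the median in both arrays, so these probe sets add less to the shared direction.

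These MCL1 differences were small, 1.16-fold on the brightest mouse probe set, with 96% of the control level on the brightest human one. Among all genes with at least 6 probe sets, 3.56% had every probe set higher in LM8 and 1.27% every probe set lower in A375M. The minimum of 6 is MCL1's own number of probe sets. Of 80 genes that met it on both arrays, 1 (MCL1) had all higher in LM8 and all lower in A375M, and 0 showed the reverse. With a minimum of 3 probe sets, 13.3% of genes had all higher in LM8 and 5.46% all lower in A375M, and of 2011 genes that met it on both arrays 13 did both and 4 showed the reverse. These counts were made after the values were seen. Any identical probe set keeps a gene out of them, and 45.4% of A375M probe sets were identical, against 0.706% in LM8. The A375M and joint counts are therefore lowered by identical values, and no MCL1 probe set was identical. The probe sets of a gene share the same RNA sample and are not replicates. In each line 3 of the 6 MCL1 probe sets had the suffix _x_at or _s_at, a mark of probes that match several transcripts. As all 6 shared a sign, this split could give no other direction. The signs stayed after median centring, repeated quantile normalization and removal of a loess curve. These steps moved the values little, so they could hardly have changed the signs. The smallest LM8 difference was 0.060 as reported and 0.045 to 0.069 afterwards. In A375M the smallest was -0.060 as reported and -0.078 to -0.045 afterwards. In LM8 the marked probe sets differed by 0.243 to 0.308 and the others by 0.060 to 0.238, and only marked ones lay outside their level band. In A375M the marked ones differed by -0.28 to -0.060 and the others by -0.40 to -0.094. The brightest human probe set differed by less than the gauge between probe sets, and leaving out marked probe sets moved the human value to -0.40. The part of the actin 3' to 5' values given above in the A375M differences was not tested.

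**Figure D3:**
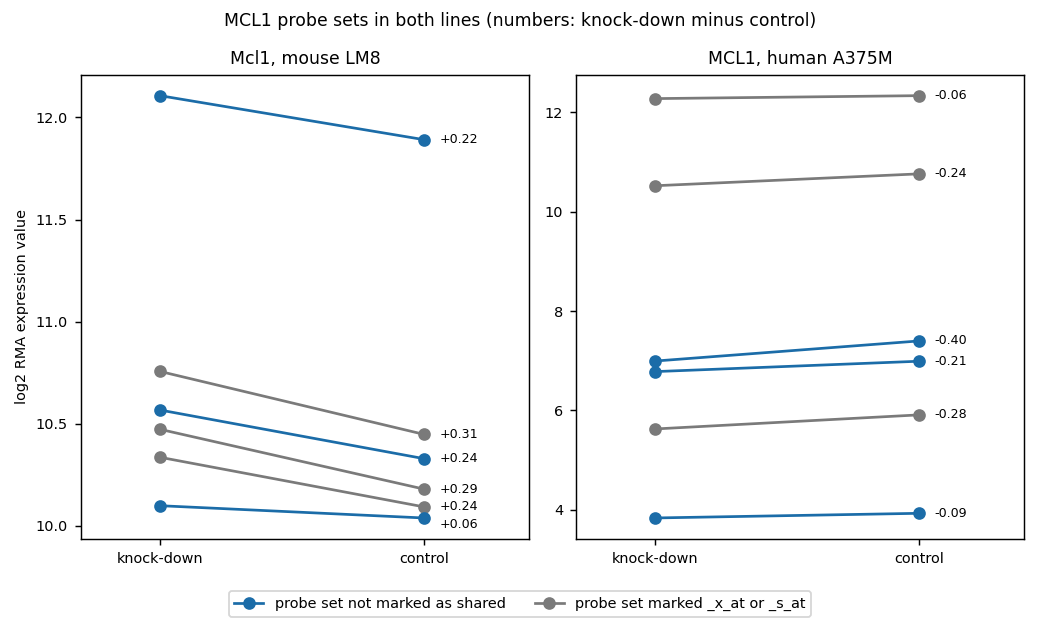
Log2 RMA level (y axis, a separate scale in each panel) of the 6 MCL1 probe sets of each array in knock-down and control cells, with each difference, knock-down minus control, printed at the right. All 6 are higher in the LM8 knock-down array (0.06 to 0.31) and all 6 lower in the A375M knock-down array (-0.40 to -0.06).

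BCL2, the founding survival protein, differed by -0.047 to 0.033 on its bright probe sets in LM8. These 3 read 10.05, 8.23 and 7.72 in the knock-down array and 10.09, 8.22 and 7.69 in the control array. The dimmer 2 were lower, at 5.69 and 5.61 in the knock-down array against 6.25 and 6.01 in the control array, differences of -0.56 and -0.40. The first of them, 1443837_x_at, is marked as matching several transcripts and lay outside its level band. The second, 1440770_at, is not marked and lay inside its band. The probe sets of Bcl2 therefore disagreed, and the mean of all 5 differed by -0.19. In A375M the brightest BCL2 probe set read 6.04 in the knock-down array and 6.22 in the control array, a difference of -0.18. Another 2 were identical, at 5.88 and 4.57, and the dimmest read 3.20 in the knock-down array and 3.66 in the control array. None of the 4 human BCL2 probe sets was higher.

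BCL2L1 encodes BCL-XL, a survival protein, and by splicing the shorter BCL-XS, which promotes death. The probe sets were not assigned to either form. In LM8 its bright probe set read 8.98 in the knock-down array and 9.05 in the control array, a difference of -0.07, while 3 probe sets below the median were 0.063 to 0.20 higher. In A375M the bright probe set 212312_at read 7.99 in the knock-down array and 7.77 in the control array, 1.16-fold higher and the highest difference of any human member. A dim probe set, 215037_s_at, went the other way, at 3.90 in the knock-down array and 4.70 in the control array. It is marked as matching several transcripts, and its control value recurred exactly in 282 other probe sets of that array. The remaining human ones were identical at 5.27 and 3.71, and the mean of the 4 differed by -0.14, so the direction of BCL2L1 in A375M depended on the probe set.

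BCL2L2, which encodes the survival protein BCL-W, read 9.37 in the LM8 knock-down array and 9.44 in the LM8 control array on its bright probe set. Its 3 dimmer mouse probe sets differed by 0.26, -0.28 and 0.10. In A375M the bright probe set read 8.10 in the knock-down array and 8.14 in the control array, and the other was identical at 4.45. Neither line thus gave a difference beyond the gauge on the bright probe set. Over the 4 survival genes the median difference was -0.061 in LM8 and -0.051 in A375M.

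BAK1 encodes the effector BAK, which sits in the outer membrane and oligomerises into pores. In LM8 its bright probe set read 8.39 in the knock-down array and 8.36 in the control array, and a dim one read 5.34 in the knock-down array and 5.57 in the control array. In A375M its single probe set read 7.19 in the knock-down array and 7.29 in the control array, a difference of -0.10. All of these lay within the band of differences of probe sets of like level.

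Among the BH3-only genes, BCL2L11 had the highest difference of any member in LM8. It encodes BIM, which can bind all survival proteins and is a known target of FOXO transcription factors. Its brightest mouse probe set, 1435448_at, read 8.01 in the knock-down array and 7.60 in the control array, 1.33-fold higher and above the 95th percentile of its level band (0.36). The next read 7.44 in the knock-down array and 7.19 in the control array. The dimmer 3 read 5.74, 5.47 and 5.43 in the knock-down array and, in the same order, 5.73, 5.79 and 5.04 in the control array. Of the 5, 4 were higher and 1 lower, with an SD of 0.31 between them, and their mean difference was 0.15. Bcl2l11 was the only member past 1.2-fold in LM8, where 16.4% of kept genes were, and 0 members passed it in A375M, where 7.88% did.

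In A375M the 3 brightest BCL2L11 probe sets read 6.90, 6.80 and 6.61 in the knock-down array and 6.97, 6.74 and 6.58 in the control array, and so hardly differed. A dimmer one, 1553096_s_at, read 5.83 in the knock-down array and 5.17 in the control array. Its difference of 0.66 was the highest of any member probe set and stood alone, since the other 3 differed by -0.090 to 0.099. The brightest and the mean of all 7 differed in sign, at -0.077 and 0.096.

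BID, which links death receptors to mitochondria once caspase-8 cleaves it, was slightly and evenly higher in A375M. Its 3 probe sets read 8.64, 7.38 and 6.51 in the knock-down array and 8.50, 7.22 and 6.40 in the control array. The differences were 0.12 to 0.15, with an SD of 0.018 between probe sets, each within the percentiles of its level band. The brighter ones, 211725_s_at and 227143_s_at, are marked as matching several transcripts. Their control values recurred exactly in 10 and 15 other probe sets of that array. In LM8 Bid read 9.28, 7.92 and 6.16 in the knock-down array and 9.25, 7.89 and 6.19 in the control array, differences of -0.034 to 0.027. The mouse transcript therefore differed by less than the gauge on all of its probe sets.

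BAD is a BH3-only protein that survival kinases phosphorylate and 14-3-3 proteins then sequester. In LM8 it read 10.09 and 9.93 in the knock-down array and 10.23 and 9.93 in the control array, differences of -0.14 and -0.0079. In A375M the brightest read 6.91 in the knock-down array and 6.94 in the control array, and the other 2 were identical at 6.30 and 4.45.

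BIK is a BH3-only protein of the endoplasmic reticulum, and BMF is held at the actin motor complex in resting cells. In LM8 Bik read 5.95, 3.57 and 3.00 in the knock-down array and 5.96, 3.56 and 3.16 in the control array. Bmf read 5.54, 3.92 and 4.06 in the knock-down array and 5.30, 4.72 and 4.17 in the control array. Its probe set just above the median was thus higher by 0.24 and the dim 1454880_s_at lower by 0.80, and no direction can be given for Bmf. In A375M each had 1 probe set with identical values in both arrays, 5.85 for BIK and 6.36 for BMF. Over the 5 BH3-only genes the median difference was 0.026 in LM8 and 0 in A375M.

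Identical human values limit what can be read from them. Of the 32 human member probe sets 10 (31.2%) were identical in both arrays. In 20 of the 32 the control value recurred exactly in another probe set of the same array, against 4 of 37 in LM8. A dim probe set of BAD and one of BCL2L2 both read 4.45, a control value shared with 337 other probe sets, and the BIK and BMF values were shared with 103 and 32. The sources used here do not say how these recurring values arose, and they do not show that a transcript was unchanged.

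**Figure D4:**
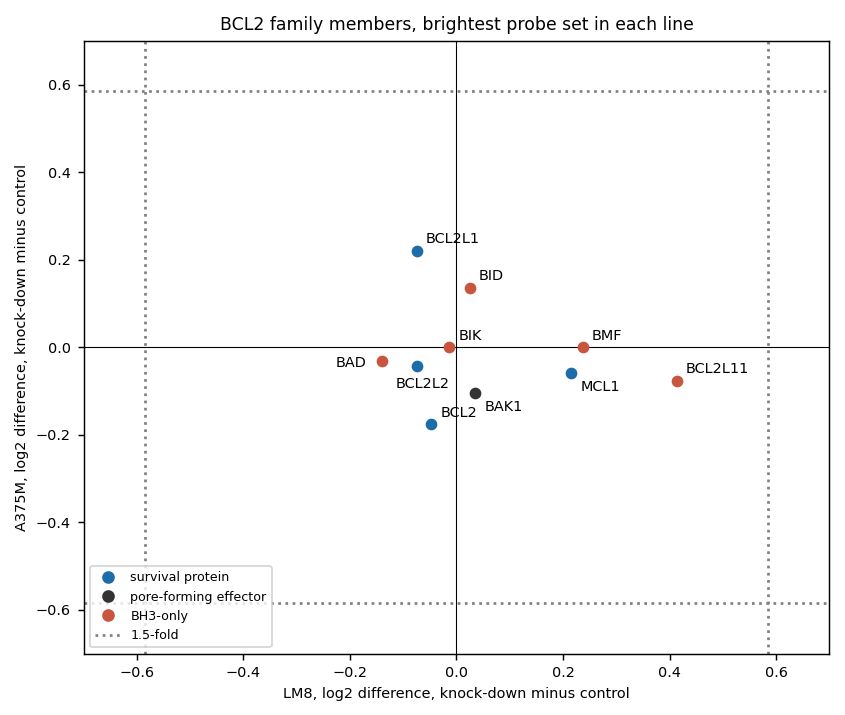
Log2 difference, knock-down minus control, of the brightest probe set of each member in LM8 (x axis) and A375M (y axis), coloured by class, with dotted lines at 1.5-fold. All 10 members lie inside the dotted lines, 4 of them with opposite signs in the lines and 2, BIK and BMF, at 0 in A375M.

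Set side by side, 4 members (BCL2, BCL2L2, BID and BAD) had the same sign in both lines, 4 (BCL2L1, MCL1, BAK1 and BCL2L11) had opposite signs, and 2 were identical in A375M. Opposite signs were thus found in 40% of members, beside 36.1% of 8981 genes kept in both lines under 1 symbol. The share among members is near that of all genes.

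Mcl1 had all 6 probe sets higher in LM8 and Bcl2l11 had the highest difference there, and the 250 bases before their transcription starts are shown for orientation (RefSeq, GRCm38.p6, plus strand, 5' to 3'). A start was listed for 9 of the 10 members, with 1 for Mcl1 and 2 for Bcl2l11. Capitals mark exact matches, on either strand, to the GC box GGGCGG, the ETS core CCGGAAG, the CCAAT box CCAAT, the forkhead core GTAAACA, the E-box CACGTG or the cyclic AMP response element TGACGTCA. No match overlapped another. The Mcl1 window is chr3:95658471-95658720 and those of Bcl2l11 are chr2:128125788-128126037 and chr2:128127325-128127574.
Mcl1: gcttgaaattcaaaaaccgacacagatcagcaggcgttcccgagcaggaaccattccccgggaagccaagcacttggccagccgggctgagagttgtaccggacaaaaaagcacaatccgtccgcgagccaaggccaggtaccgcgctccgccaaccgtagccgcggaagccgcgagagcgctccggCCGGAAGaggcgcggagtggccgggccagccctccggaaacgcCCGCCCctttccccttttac
Bcl2l11 start 1: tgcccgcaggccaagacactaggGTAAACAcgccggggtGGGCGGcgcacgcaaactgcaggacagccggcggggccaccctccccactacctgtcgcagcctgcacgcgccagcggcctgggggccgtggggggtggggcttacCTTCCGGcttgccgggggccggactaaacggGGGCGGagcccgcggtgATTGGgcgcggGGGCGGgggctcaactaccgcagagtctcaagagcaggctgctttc
Bcl2l11 start 2: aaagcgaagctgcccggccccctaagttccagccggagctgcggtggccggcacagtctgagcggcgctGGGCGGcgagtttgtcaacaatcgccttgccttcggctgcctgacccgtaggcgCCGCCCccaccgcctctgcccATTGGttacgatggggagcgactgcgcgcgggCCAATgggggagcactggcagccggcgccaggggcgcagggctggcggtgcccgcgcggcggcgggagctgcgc

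The Mcl1 window held 1 ETS core and 1 GC box. The first Bcl2l11 window held 1 forkhead core, 227 bases before the start, with 3 GC boxes, 1 ETS core and 1 CCAAT box, and the second held 2 GC boxes and 2 CCAAT boxes. Among all 32851 windows of this length the GC box was found in 32.7%, the CCAAT box in 33.8%, the ETS core in 6.91%, the forkhead core in 3.17%, the E-box in 6.02% and the cyclic AMP response element in 1.55%. The Mcl1 window held 64.4% G or C and those of Bcl2l11 72.0% and 73.2%, against a median of 52.4% for all windows. The shares are therefore not those of windows of like composition. A match is a run of letters, not a measured binding site, and these arrays did not measure binding.

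In 3 further lists of pathway genes, too, no kept gene differed by 1.5-fold on its brightest probe set. Of all kept genes 2.47% did so in LM8 and 0.748% in A375M, so counts of 0 in lists this short lie near the background shares. Other BCL2 family genes gave 7 kept genes in LM8 (2 higher, 4 lower, 1 identical, median -0.039) and 10 in A375M (3 higher, 4 lower, 3 identical, median 0), with 0 at least 1.5-fold different in either. Bnip3, a mitophagy receptor with a BH3-like stretch that hypoxia induces, had the largest difference in LM8, at 11.20 in the knock-down array and 11.73 in the control array, or -0.53. Next came the BH3-only gene Hrk (0.35, with its other probe set at -0.062), Bcl2l14 (-0.19, with its other at 0.15) and Bok (0.15), which encodes an effector-like protein. In A375M BCL2L13 differed by -0.20, the effector gene BAX by -0.17 and -0.15 on its probe sets, the survival gene BCL2A1 by -0.16 and HRK by 0.14.

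The mitochondrial death machinery comprises proteins released through the pore, the apoptosome and the VDAC channels of the outer membrane. On brightest probe sets it had the narrowest range of differences among the 3 further lists in both lines. All 9 genes were kept in both lines, with 5 higher and 4 lower in LM8 and 3 higher, 3 lower and 3 identical in A375M. In LM8 the largest were Vdac3 (-0.17), a channel of the outer membrane, Htra2 (0.12), a protease released through the pore, Apaf1 (0.10), the scaffold of the apoptosome, and Aifm1 (0.087). In A375M the brightest probe sets of the 9 lay between -0.034 and 0.024, with HTRA2 at -0.034, ENDOG at -0.031, APAF1 at -0.024 and DIABLO at 0.024. Other A375M probe sets ranged wider. For CYCS, which encodes cytochrome c, 2 of 3 were higher, by up to 0.46, and 0 lower, while VDAC3 reached 0.18 and VDAC1 0.11.

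Genes whose products bind, modify, degrade or transcribe the members gave 22 kept genes in LM8 and 24 in A375M. On their brightest probe sets 0 were at least 1.5-fold different. In LM8 16 were higher and 6 lower, beside 53.8% and 46% of all kept genes, and their median was 0.059 against 0.015. In A375M 2 were higher, 15 lower and 7 identical, beside 29%, 40.3% and 30.8% of all kept genes, and their median was -0.036 against 0. Bright A375M probe sets leaned lower as a whole, with 5th and 95th percentiles of -0.25 and 0.12 in the brightest band. The regulators were not compared with genes of like level. In LM8 Foxo1, a forkhead factor, read 8.43 in the knock-down array and 8.91 in the control array, a difference of -0.48, and 3 of its 4 probe sets were lower. The list's other FOXO gene, Foxo3, went the other way, at 9.87 in the knock-down array and 9.75 in the control array. All 3 Foxo3 probe sets were higher, by 0.097 to 0.59, the largest of these just past 1.5-fold. On their brightest probe sets Foxo1 and Foxo3 thus differed in opposite directions in LM8, and other forkhead genes were not looked at here. Ywhag, a 14-3-3 protein gene, differed by -0.25 and Fbxw7, of a ubiquitin ligase that degrades MCL1, by -0.24, with another Fbxw7 probe set at 0.13. Btrc, of another ubiquitin ligase, differed by 0.37 in LM8, where 4 of 5 probe sets were higher, and by 0.27 in A375M, where 1 was higher, 1 lower and 3 identical. In A375M the mitochondrial ubiquitin ligase gene MARCHF5 differed by -0.24, with its other probe set at 0.031. BAG1, a BCL2-binding co-chaperone gene, differed by 0.14 to 0.21 on 3 probe sets. USP9X, of a deubiquitinase that stabilises MCL1, was lower on all 4 probe sets, with differences of -0.38 to -0.0075.

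**Figure D5:**
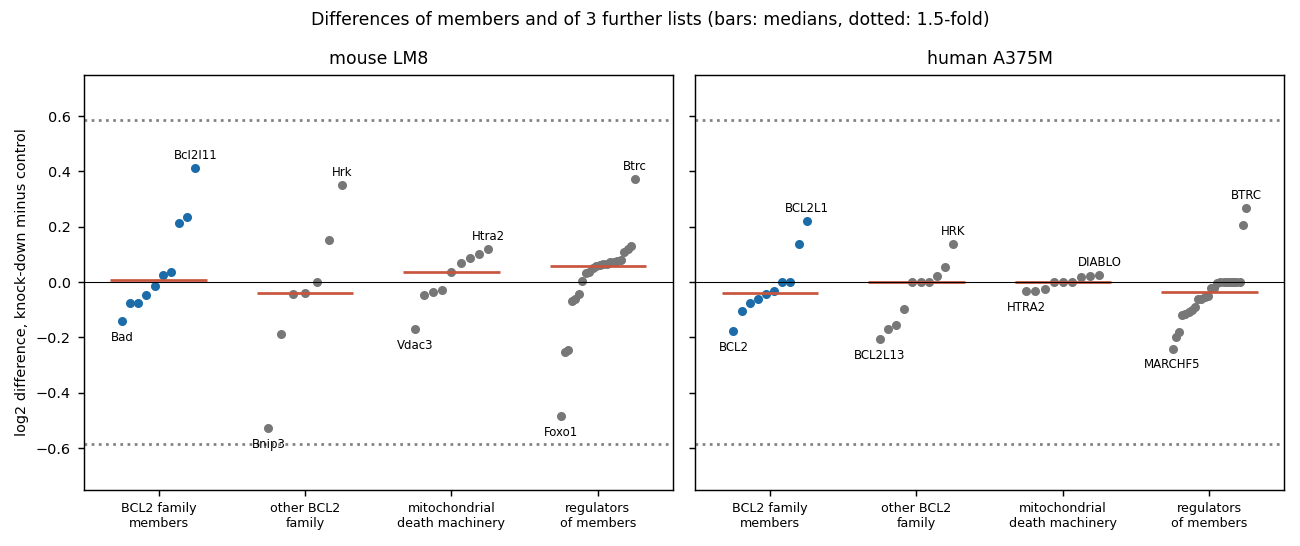
Log2 difference, knock-down minus control (y axis), of each kept gene among the BCL2 family members and 3 further lists (x axis) in LM8 and A375M, with bars at the medians, dotted lines at 1.5-fold, and the lowest and highest gene named. No gene passes 1.5-fold on its brightest probe set, and the lists' medians lie between -0.039 and 0.059.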

How the data were processed

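Total RNA of 4 cultures was labelled with biotin and measured on Affymetrix 3' arrays, a mouse and a human design, per the labels' protocols. The deposited values are log2 expression values per probe set that the authors made with RMA (version not stated), per the submitters' processing notes. RMA equalises the arrays' distributions, so a shift of all genes together would not be seen. Groups were taken from sample titles, 1 array each, and no test was made: LM8 and A375M were not treated as replicates of each other.

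Probe sets were named by the supplied platform annotation. Those with 1 symbol numbered 34945 in mouse and 41091 in human, those with several 932 and 1801, and those with none 9160 and 11721; only the first kind named genes. The filter kept 11646 mouse and 13244 human genes. Differences were counted at 1.5-fold. The members, the 3 further lists and the marker lists were chosen with earlier results of these data known. Named genes were all members, the target gene, and up to 4 kept genes of each further list with the largest differences plus any past 1.5-fold. Foxo3, CYCS, VDAC1 and VDAC3 were named besides, for their other probe sets. Listed genes with no probe set under the listed symbol were not analysed here. The 8 alternatives were no filter, a filter at the 70th percentile, median centring, repeated quantile normalization, a loess curve removed (span 0.4), averaged probe sets, no _x_at or _s_at probe sets, and 32 added before the log2, besides thresholds of 2-fold and 1.2-fold. Scripts were tested on simulated data. Python 3.11.15, numpy 2.4.6, pandas 2.3.3 and statsmodels 0.14.6 were used.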

Additional observations from a re-analysis of the deposited data

Results flagged for a closer look

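Members are listed here because their brightest probe sets differed in opposite directions in LM8 and A375M. With 1 array per group the difference between the lines was not tested. The LM8 difference minus the A375M difference was 0.49 for BCL2L11, -0.29 for BCL2L1, 0.27 for MCL1 and 0.14 for BAK1. For MCL1 all 6 probe sets of each line shared the sign. For BCL2L1 and BCL2L11 the sign in A375M was the other one when all probe sets of the gene were averaged, and for BCL2L1 and BAK1 so was the sign in LM8.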

How the results depend on the processing

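Under all 8 alternatives 0 members were at least 1.5-fold different in either line, and at 2-fold the count was 0 as well. At 1.2-fold the values as reported gave 1 in LM8, Bcl2l11, and 0 in A375M, while A375M gave 1 without marked probe sets (MCL1 at -0.40) and 1 under repeated quantile normalization (BCL2L1 at 0.27), and LM8 gave 0 with averaged probe sets. The median of the members stayed between -0.011 and 0.014 in LM8 and between -0.056 and -0.00032 in A375M. Of 74 recomputed member differences in LM8 3 moved by more than the gauge between probe sets and 4 changed sign, and of 77 in A375M 4 moved and 3 changed sign. With all probe sets of a gene averaged Bcl2 was at -0.19, Bcl2l1 at 0.069, Bak1 at -0.098 and Bcl2l11 at 0.15 in LM8, and BCL2L1 at -0.14, MCL1 at -0.21 and BCL2L11 at 0.096 in A375M. Bik and Bmf were not kept in LM8 under that setting, under the filter at the 70th percentile or without marked probe sets. The stricter filter left 7 members in A375M, without BCL2, BIK and BMF. Signal near the array median limits what the dim probe sets can show.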
